A study of Mus musculus with 3 samples.

Results

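A set of 7 genes of phosphoinositide 3-kinase (PI3K) signalling was followed among the 20586 genes counted in single cells of the mouse thalamus: Pik3r5, Pik3r1, Pik3cg, Pik3cd, Pik3ap1, Inpp5d and Akt1. They were chosen by name and function, with earlier results of these data known, and all 7 were in the count table. CD45+ cells, that is cells carrying the common leukocyte surface antigen, had been taken from thalamus 4 h after intracerebroventricular injection and profiled by droplet sequencing of transcript 3′ ends. The 7598 deposited cells came from 3 libraries. The library called WT IL-33 was from Cx3cr1-creER heterozygous mice given the cytokine interleukin-33 (IL-33), and WT vehicle was from mice of the same genotype given vehicle. The library labelled cKO IL-33 was from mice that were Cx3cr1-creER heterozygous and homozygous for a floxed ST2 allele, and they were also given IL-33. All 3 libraries therefore share the creER allele, whose promoter is active in microglia and other myeloid cells, and no floxed group given vehicle was analysed here. Nothing in the sources used here states how many animals were behind each library, their ages or how the recombinase was induced.

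There was 1 library per group, so no difference below has a replicate check and no p-value is given. Levels are in CPM, counts per 1000000: the unique molecular identifiers (UMIs, 1 per captured transcript) of a gene summed over a library's cells, divided by the library's total. Intervals are exact 95% intervals (Poisson for a level, Clopper-Pearson for a share and for the split behind a ratio) and cover counting error only. Each molecule is counted once near its 3′ end, so levels of different genes on the CPM scale need no correction for transcript length, though capture can differ between genes. A gene counted as measured in a comparison at 10 CPM or more in either library, and 1.5-fold was the size at which a gene was counted as higher or lower. The WT IL-33 library is in 2 of the comparisons and so is WT vehicle, so the comparisons are not independent of each other.

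The libraries held 2202 cells and 12127214 UMIs (WT IL-33), 2687 cells and 17480958 UMIs (cKO IL-33) and 2709 cells and 18269042 UMIs (WT vehicle), with medians of 3951, 5119 and 5544 UMIs per cell. Il1rl1, which encodes ST2, the receptor subunit for IL-33, was at 11.6 CPM (10.1 to 13.3) with vehicle, 5.77 CPM (4.50 to 7.29) in WT IL-33 and 12.8 CPM (11.2 to 14.6) in the library labelled cKO IL-33. Counts at the 3′ end can lie outside a deleted stretch, so this level does not check the deletion. All 8 microglial markers were at 10 CPM or more in each library, with summed levels of 14937, 23336 and 21913 CPM for WT IL-33, for cKO IL-33 and for vehicle. The mast cell markers in the table were at 0 throughout, and those of T cells and of natural killer or innate lymphoid cells summed to at most 0.66 CPM. Border macrophage markers summed to 13.8, 91.1 and 77.2 CPM, B cell markers to 291, 246 and 266 CPM (all but 2 of the 5 markers were below 10 CPM), and astrocyte markers to 239, 269 and 144 CPM. Monocyte markers summed to 36.5, 38.8 and 60.5 CPM with Ly6c2 and Chil3 at 0 in each, oligodendrocyte markers to 57.1, 64.8 and 56.9 CPM, and endothelial markers to 15.8, 25.5 and 23.0 CPM. Neutrophil, dendritic cell and neuron markers each summed to at most 12.8 CPM. The deposited sex calls differed between the libraries: 2701 cells of the vehicle library, 1095 of WT IL-33 and 39 of cKO IL-33 were called male. The libraries shared at most 1 cell barcode pairwise.

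PI3Ks are lipid kinases that phosphorylate a phosphoinositide of the inner plasma membrane to phosphatidylinositol trisphosphate (PIP3), which draws kinases such as Akt and exchange factors for small GTPases to the membrane. In leukocytes the gamma and delta forms predominate. PI3K gamma pairs the catalytic subunit encoded by Pik3cg with a regulatory subunit encoded by Pik3r5 or Pik3r6, and is switched on by G protein-coupled receptors such as those for chemokines and purines. PI3K delta pairs the product of Pik3cd with a regulatory subunit such as that of Pik3r1, and is switched on through phosphotyrosines on receptors and adaptors, among them the adaptor BCAP encoded by Pik3ap1. SHIP-1, encoded by Inpp5d, is a phosphatase that removes a phosphate from PIP3. Microglia, the macrophages of the brain parenchyma, use these enzymes in migration and phagocytosis.

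The start-site windows of the genes whose levels differed most between libraries are shown together with that of Pik3cg, the partner of Pik3r5, since the regulatory subunit and its catalytic partner differed unequally. They are from RefSeq (GRCm38.p6) and run from 250 bases before to 50 bases after an annotated start, each written 5′ to 3′ on the gene's own strand. Capitals mark a match to the PU.1 motif. The Pik3r5 window is chr11:68431875-68432174 on the plus strand, that of Pik3ap1 is chr19:41385053-41385352 on the minus strand, that of Inpp5d is chr1:87620062-87620361 on the plus strand and that of Pik3cg is chr12:32208610-32208909 on the minus strand.
Pik3r5: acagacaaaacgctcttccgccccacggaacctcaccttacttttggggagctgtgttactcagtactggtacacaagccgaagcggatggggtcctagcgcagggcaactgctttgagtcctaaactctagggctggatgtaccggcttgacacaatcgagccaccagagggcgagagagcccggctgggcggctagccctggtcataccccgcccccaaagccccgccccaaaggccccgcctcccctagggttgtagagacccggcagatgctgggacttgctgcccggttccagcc
Pik3ap1: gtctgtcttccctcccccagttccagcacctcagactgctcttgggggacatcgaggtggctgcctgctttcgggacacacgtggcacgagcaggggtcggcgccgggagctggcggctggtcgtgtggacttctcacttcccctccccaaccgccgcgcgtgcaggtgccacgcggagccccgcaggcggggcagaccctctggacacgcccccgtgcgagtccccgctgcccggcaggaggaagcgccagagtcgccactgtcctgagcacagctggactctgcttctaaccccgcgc
Inpp5d: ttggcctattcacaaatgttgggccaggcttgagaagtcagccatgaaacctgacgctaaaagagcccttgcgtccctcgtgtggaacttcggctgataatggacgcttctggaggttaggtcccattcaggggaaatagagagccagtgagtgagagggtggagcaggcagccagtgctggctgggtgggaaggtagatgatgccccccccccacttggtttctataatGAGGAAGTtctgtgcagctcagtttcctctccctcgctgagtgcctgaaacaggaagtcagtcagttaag
Pik3cg: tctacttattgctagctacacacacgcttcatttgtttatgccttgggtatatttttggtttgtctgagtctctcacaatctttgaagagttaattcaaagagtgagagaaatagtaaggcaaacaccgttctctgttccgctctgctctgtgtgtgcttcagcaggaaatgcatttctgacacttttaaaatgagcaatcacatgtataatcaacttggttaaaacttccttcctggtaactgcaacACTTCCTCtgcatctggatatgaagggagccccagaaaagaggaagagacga

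All 7 genes had at least 1 window in the RefSeq table, 12 windows in all. On both strands they were searched for the kappa-B consensus, for the AP-1 letters TGANTCA and for the PU.1 letters GAGGAAGT, which are recognised by transcription factors of inflammatory signalling (kappa-B, AP-1) and of the myeloid lineage (PU.1). Of 32851 windows of all genes, 8.46% held the kappa-B consensus, 7.81% the AP-1 letters and 3.20% the PU.1 letters. The PU.1 letters began 20 bases before the start of Inpp5d and 2 bases before the start of Pik3cg shown here. The Pik3cg match, on the other strand, thus runs across that start, and the same site fell inside a second, overlapping Pik3cg window. None of the 3 motifs was in the windows of Pik3r5, Pik3ap1 or Akt1, which says only that these letters are not in these windows. The kappa-B consensus was in 1 of 3 windows of Pik3cd and 1 of 2 windows of Pik3r1. The Pik3r5 and Pik3ap1 windows were rich in G and C, at 62.0% and 69.7% with 16 and 26 CG pairs, against 53.7% and 6 for Inpp5d and 40.7% and 4 for Pik3cg. Medians over all windows were 52.7% and 7 CG pairs.

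In the WT IL-33 library, transcripts of the PI3K gamma regulatory subunit and of BCAP were several-fold more abundant than in WT vehicle. Those of the PI3K delta subunits differed by less than 1.5-fold, and those of SHIP-1 and Akt1 were less abundant. Against WT vehicle, 3 of the 7 genes were at least 1.5-fold higher (Pik3r5, Pik3ap1 and Pik3cg) and 2 at least 1.5-fold lower (Inpp5d and Akt1). Over all 8814 measured genes 23.2% were that much higher and 20.0% that much lower, so differences of this size were common between these libraries. A difference as large as that of Pik3r5 was not: 1.71% of measured genes were at least as far higher, Pik3r5 included, and the share for Pik3ap1 was 3.82%. For Akt1 and Inpp5d, 11.9% and 12.7% of genes were at least as far lower. At 2-fold, 2 of the 7 were higher (11.7% of all measured genes) and 0 lower (10.4%).

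**Figure D1:**
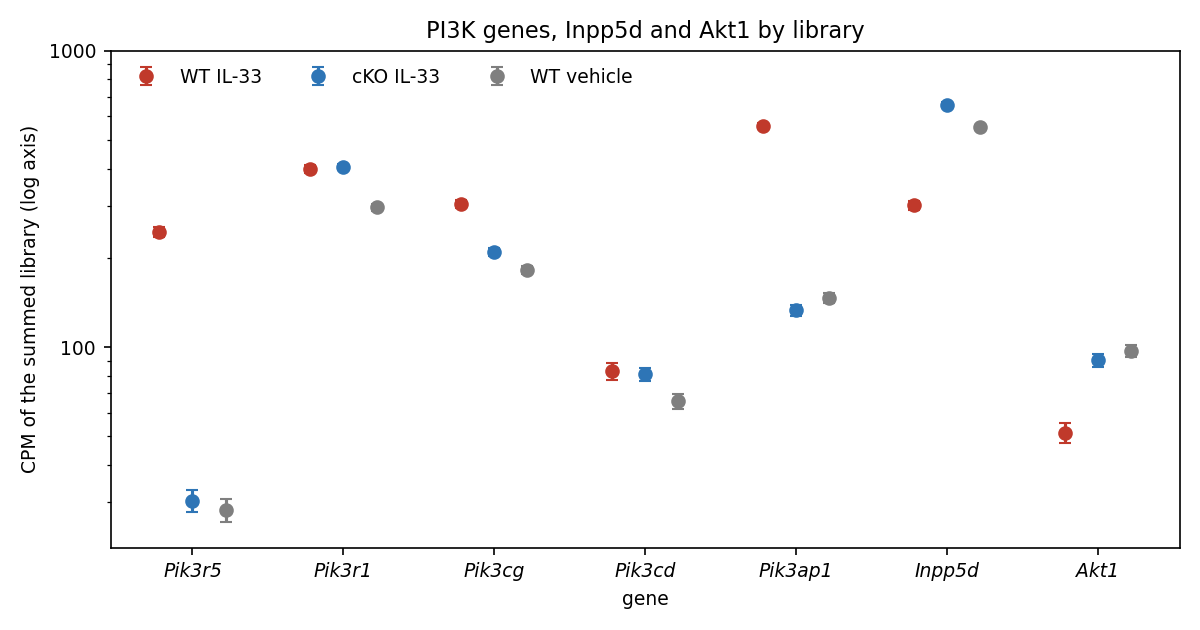
Level of each of the 7 genes in the summed cells of each library, in CPM on a log axis, 1 point per library with its exact 95% Poisson interval. Pik3r5 and Pik3ap1 are highest in WT IL-33 (244 and 557 CPM), Inpp5d and Akt1 are lowest there (301 and 51.3 CPM), and for these 4 genes the cKO IL-33 points lie nearer to WT vehicle. For Pik3r1 and Pik3cd the cKO IL-33 points (407 and 80.8 CPM) lie beside those of WT IL-33.

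Of the PI3K gamma genes, Pik3r5 differed most. Pik3r5, at chr11:68432121-68497849 on the plus strand of GRCm38, encodes the regulatory subunit that binds G protein beta-gamma dimers. Its level was 28.1 CPM in the vehicle library (25.7 to 30.6, from 513 UMIs), 244 CPM in WT IL-33 (236 to 253, from 2965 UMIs) and 30.3 CPM in the library labelled cKO IL-33 (27.8 to 33.0, from 530 UMIs). WT IL-33 thus stood alone, and the intervals of the other two overlapped. The ratio of WT IL-33 to WT vehicle was 8.71 (7.93 to 9.58), and the level was 8.06-fold lower in cKO IL-33 than in WT IL-33 (7.35 to 8.86). The ratio of cKO IL-33 to WT vehicle was 1.08 (0.954 to 1.22), an interval that includes equal levels.

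Pik3cg, at chr12:32173473-32208659 on the minus strand, encodes the catalytic subunit. It was at 182 CPM in the vehicle library (176 to 188), 304 CPM in WT IL-33 (294 to 314) and 209 CPM in cKO IL-33 (202 to 216). The order was the same as for Pik3r5, with a much smaller spread: WT IL-33 was 1.67-fold higher than WT vehicle (1.59 to 1.75), and cKO IL-33 was 1.46-fold lower than WT IL-33 (1.39 to 1.52). Here the library labelled cKO IL-33 lay above WT vehicle, with a ratio of 1.15 (1.09 to 1.20).

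Pik3r6 encodes the alternative regulatory subunit of PI3K gamma and is the next protein-coding gene along the chromosome, at chr11:68503019-68552698, 5169 bases beyond the end of Pik3r5 on the same strand. It was at 26.8 CPM in the vehicle library, 139.5 CPM in WT IL-33 and 32.0 CPM in cKO IL-33, which made it 5.21-fold higher (4.71 to 5.78) in WT IL-33 than in WT vehicle. Both regulatory genes therefore differed more between these libraries than their catalytic partner did. Counted as molecules, there were 0.804 Pik3r5 UMIs per Pik3cg UMI in WT IL-33 (0.766 to 0.844), against 0.154 with vehicle (0.140 to 0.169) and 0.145 in cKO IL-33 (0.132 to 0.159). The regulatory UMIs of Pik3r5 and Pik3r6 together numbered 0.301 per Pik3cg UMI with vehicle, 1.26 in WT IL-33 and 0.298 in cKO IL-33. The balance between the regulatory subunits also differed, with 1.75 Pik3r5 UMIs per Pik3r6 UMI in WT IL-33 (1.65 to 1.86) and 0.946 (0.839 to 1.07) and 1.05 (0.925 to 1.19) in cKO IL-33 and WT vehicle. These are ratios of captured transcripts and not of proteins.

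Pik3ap1, at chr19:41272377-41385102 on the minus strand, encodes BCAP, an adaptor that recruits PI3K to B cell and Toll-like receptors. It was the most abundant of the 7 in WT IL-33, at 557 CPM (543 to 570.1), beside 147 CPM (141 to 152) with vehicle and 133 CPM (128 to 138) in cKO IL-33. WT IL-33 was 3.79-fold higher than WT vehicle (3.63 to 3.97), and cKO IL-33 was 4.19-fold lower than WT IL-33 (3.99 to 4.39). The library labelled cKO IL-33 lay 1.10-fold below WT vehicle (1.04 to 1.17).

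Summed over whole libraries, the PI3K delta subunits did not reach 1.5-fold in any comparison. Within clusters, given below, Pik3r1 did in clusters 0, 2 and 3, and Pik3cd only in cluster 3, from few UMIs. Pik3cd, at chr4:149649168-149702571 on the minus strand, encodes the catalytic subunit. It was at 65.6 CPM in the vehicle library (62.0 to 69.5), 82.7 CPM in WT IL-33 (77.7 to 88.0) and 80.8 CPM in cKO IL-33 (76.7 to 85.2). The libraries given IL-33 overlapped and lay above vehicle, by 1.26-fold (1.16 to 1.37) in WT and 1.23-fold (1.14 to 1.33) in cKO. Pik3r1, at chr13:101680563-101768217 on the minus strand, encodes the regulatory subunit shared by the class IA kinases. Like Pik3cd it was lowest with vehicle, with 296 CPM in the vehicle library (288 to 304), 399 CPM in WT IL-33 (388 to 411) and 407 CPM in cKO IL-33 (397 to 416). Its ratios to vehicle were 1.35 (1.30 to 1.40) for WT IL-33 and 1.37 (1.33 to 1.42) for cKO IL-33. Between the 2 libraries given IL-33 the ratio was 1.02 (0.982 to 1.06), so over whole libraries no difference was detectable at this depth.

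Inpp5d went the other way. This gene, at chr1:87620312-87720507 on the plus strand, encodes the PIP3 phosphatase SHIP-1 and was the most abundant of the 7 in the other libraries. It was at 551 CPM in the vehicle library (541 to 562), 301 CPM in WT IL-33 (291 to 311) and 658 CPM in cKO IL-33 (646 to 669.9). WT IL-33 lay 1.83-fold below WT vehicle (1.76 to 1.90), and cKO IL-33 lay 2.19-fold above WT IL-33 (2.11 to 2.27) and 1.19-fold above WT vehicle (1.16 to 1.23). Set against the catalytic subunits, there were 0.777 Inpp5d UMIs per UMI of Pik3cg and Pik3cd together in WT IL-33 (0.744 to 0.812), and 2.27 (2.20 to 2.35) and 2.23 (2.15 to 2.31) in cKO IL-33 and WT vehicle.

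Akt1, at chr12:112653821-112674884 on the minus strand, encodes a kinase recruited by PIP3 and was the least abundant of the 7 in WT IL-33. Its level was 97.3 CPM in the vehicle library (92.9 to 102), 51.3 CPM in WT IL-33 (47.3 to 55.5) and 90.2 CPM in cKO IL-33 (85.8 to 94.7). WT IL-33 was 1.90-fold lower than WT vehicle (1.73 to 2.08), and cKO IL-33 was 1.76-fold higher than WT IL-33 (1.60 to 1.93). Akt2, a related kinase, was at 21.9 CPM in WT IL-33 and 29.8 CPM in WT vehicle.

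Between the mice given IL-33, 2 of the 7 genes were at least 1.5-fold higher in the library labelled cKO IL-33 (Inpp5d and Akt1) and 2 at least 1.5-fold lower (Pik3r5 and Pik3ap1). Over all 8853 measured genes, 21.4% were that much higher and 19.2% that much lower. At least as far lower as Pik3r5 were 1.66% of genes, and 2.99% reached the difference of Pik3ap1, while 8.95% were at least as far higher as Inpp5d. At 2-fold, 1 of the 7 was higher (10.9% of all measured genes) and 2 lower (9.85%). Against WT vehicle none of the 7 genes differed by 1.5-fold in cKO IL-33, where 2.35% of 8495 measured genes were that much higher and 1.55% that much lower. None reached 2-fold either, beside 0.447% of all measured genes higher and 0.483% lower.

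Cells with fewer than 2 UMI-positive markers of each other cell type numbered 1660, 2064 and 2041 (WT IL-33, then cKO IL-33, then vehicle). In them as in all cells, 3 of the 7 genes were higher and 2 lower in WT IL-33 against vehicle, and 2 were higher and 2 lower in cKO IL-33 against WT IL-33. Summed, the microglial markers were themselves lowest in WT IL-33, as given above, and their part in the lower levels of Inpp5d and Akt1 there was not tested. By deposited cell cycle phase, Pik3r5 was at 246 CPM in G1, 244 CPM in S and 236.5 CPM in G2M cells of WT IL-33. In cKO IL-33 it was at 31.9 CPM (28.8 to 35.3), 30.5 CPM (25.2 to 36.5) and 19.2 CPM (13.3 to 26.8), so the G2M cells were lower than the G1 cells there. With vehicle it was at 30.0 CPM (26.6 to 33.6), 28.1 CPM (23.8 to 32.9) and 21.7 CPM (16.7 to 27.8). The direction was the same, with G1 and G2M intervals that overlap. Each of these levels in cKO IL-33 and vehicle was far below that of any phase in WT IL-33.

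Cell by cell, the differences were in how many cells held a UMI and in how many UMIs each held. Since depth per cell differed, every cell with at least 3000 UMIs was also thinned to 3000 UMIs, and shallower cells were left out. This kept 1849 of 2202 cells of WT IL-33, 2601 of 2687 of cKO IL-33 and 2632 of 2709 of WT vehicle. The largest part was dropped from WT IL-33, so its thinned shares leave out its shallower cells. Shares below are in the order WT IL-33, then cKO IL-33, then vehicle. A Pik3r5 UMI was found in 61.3%, 16.9% and 16.6% of all cells, and after thinning in 49.4% (47.1 to 51.7), 8.61% (7.56 to 9.76) and 8.62% (7.58 to 9.76). For Pik3ap1 the thinned shares were 79.0%, 31.4% and 34.5% (84.8%, 50.8% and 56.0% unthinned). For Inpp5d they were 52.8%, 83.4% and 79.6% (65.3%, 93.9% and 92.6% unthinned), and for Akt1 14.0%, 22.0% and 24.6% (23.4%, 40.3% and 42.9% unthinned). Pik3cg was seen in 56.7%, 44.6% and 38.9% of thinned cells (67.6%, 64.5% and 62.5% unthinned), so thinning widened its gap. Pik3r1 was seen in 64.3%, 66.6% and 56.9% (75.7%, 83.4% and 77.3% unthinned) and Pik3cd in 21.1%, 21.5% and 17.3% (32.3%, 37.0% and 33.3% unthinned). No cell type that should lack these genes was present in numbers to measure the share that free RNA gives, so low shares, such as those of Pik3r5 outside WT IL-33, are not read as expression in those cells. In WT IL-33, 407 cells (18.5%) held 3 or more Pik3r5 UMIs and together carried 56.9% of its UMIs there. Only 7 cKO IL-33 cells and 3 WT vehicle cells held as many. Both Pik3r5 and Pik3cg were seen in 29.5% of thinned WT IL-33 cells, against 3.61% of those given vehicle and 4.00% of those from cKO IL-33. These joint shares mostly follow the shares of Pik3r5. Pik3cg was seen in 59.6% of thinned WT IL-33 cells with a Pik3r5 UMI and in 53.8% of those without. The same shares were 46.4% and 44.5% in cKO IL-33, and 41.9% and 38.6% with vehicle.

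**Figure D2:**
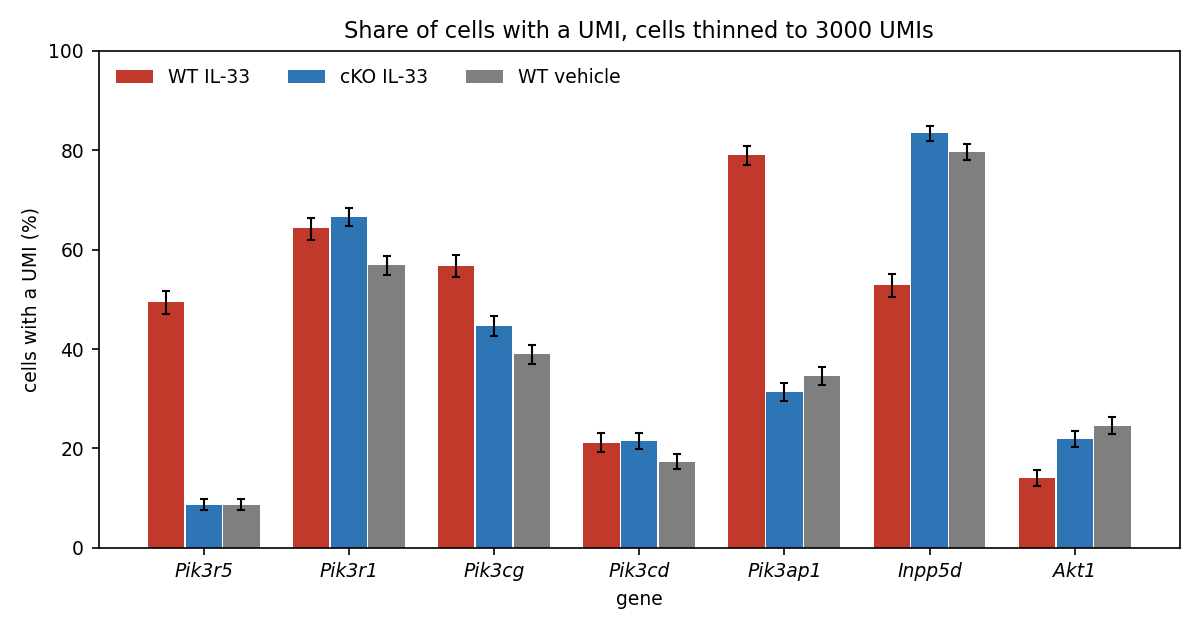
Percent of cells with at least 1 UMI of each gene after every cell with at least 3000 UMIs was thinned to 3000 UMIs. Shallower cells were left out. There is 1 bar per library with its exact 95% binomial interval. The bars of WT IL-33 are the tallest for Pik3r5 (49.4%) and Pik3ap1 (79.0%) and the shortest for Inpp5d (52.8%) and Akt1 (14.0%).

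The deposited clusters, which carry numbers and no names, were made from the expression of the same cells and so are not independent of the 7 genes. They are used here only to give levels within them, where a library had 50 cells or more. Cluster 1 held 1815 of the 2202 WT IL-33 cells (82.4%) but only 35 and 20 cells of cKO IL-33 and WT vehicle, so the library comparisons above largely set that cluster against others. Within WT IL-33, Pik3r5 ranged from 75.5 CPM in cluster 2 to 265 CPM in cluster 1. Its levels in clusters 0, 3 and 5 were 100.8, 88.0 and 205 CPM. Every one of these lay above the highest cluster of WT vehicle (35.8 CPM in cluster 2) and of cKO IL-33 (33.9 CPM in cluster 2). Pik3ap1 was highest in cluster 5 in each library, at 235 CPM in the vehicle library, 748 CPM in WT IL-33 and 227 CPM in cKO IL-33. Its lowest WT IL-33 level, 213 CPM in cluster 0, was below both of those. Inpp5d and Pik3r1 were highest in cluster 2 in each library. Inpp5d there reached 618 CPM in the vehicle library, 641 CPM in WT IL-33 and 741 CPM in cKO IL-33, so the WT IL-33 cells of this cluster did not share the low level of their library. Akt1 spanned only 94.6 to 100.4 CPM over the clusters of WT vehicle, and 47.7 to 82.4 CPM over those of WT IL-33.

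**Figure D3:**
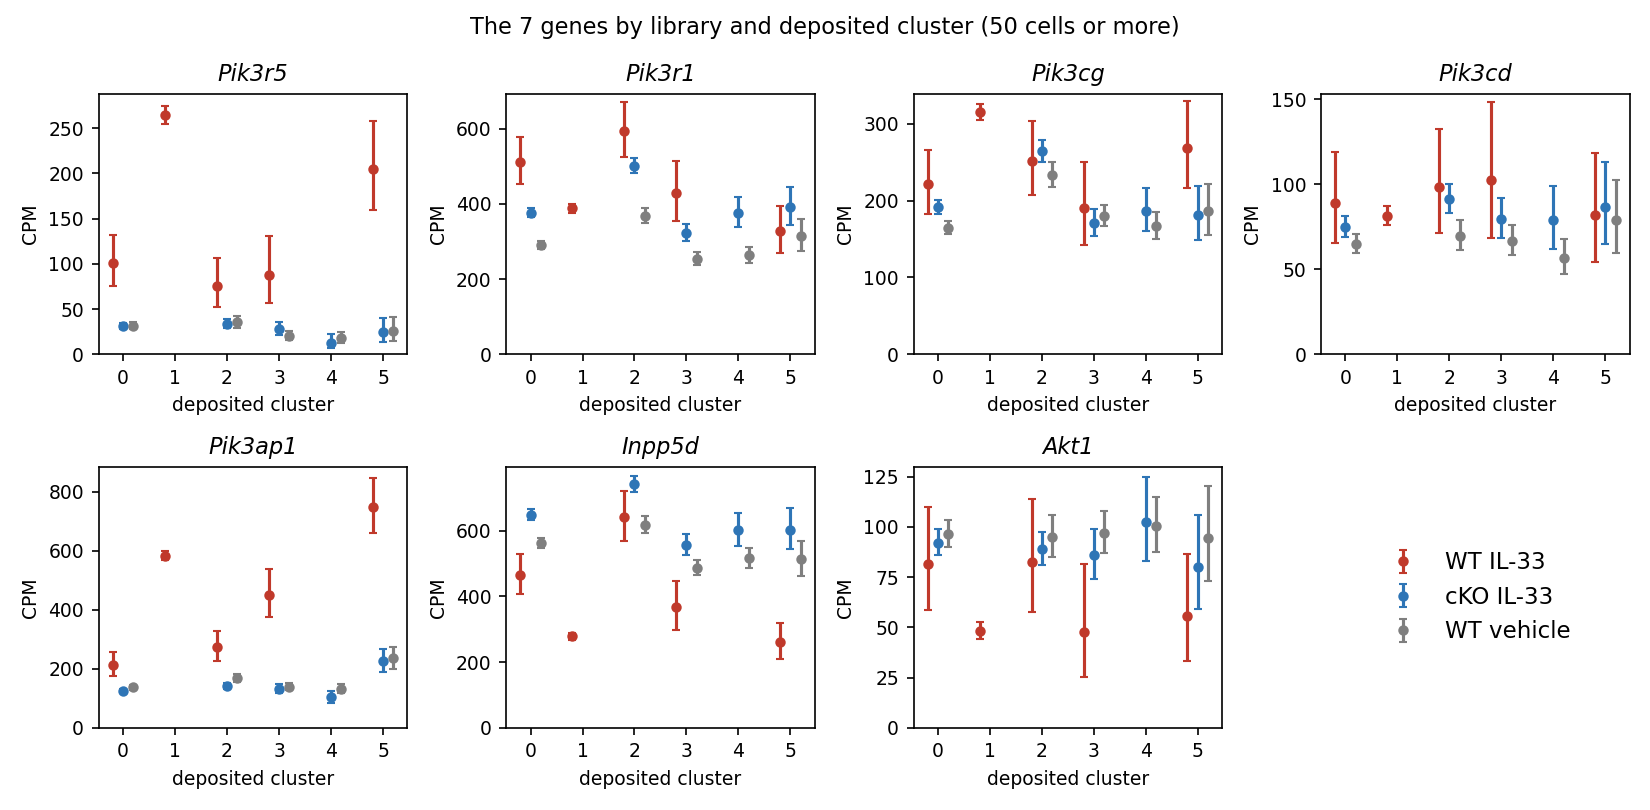
Level of each gene in CPM by deposited cluster (0 to 5), 1 point per library with at least 50 cells in the cluster and its exact 95% Poisson interval. In clusters 0, 2, 3 and 5, Pik3r5 and Pik3ap1 are higher in WT IL-33 than in the other libraries, while Inpp5d in cluster 2 is close to WT vehicle (641 and 618 CPM).

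Within the 4 clusters where WT IL-33 and WT vehicle both had 50 cells, Pik3r5 was higher in WT IL-33 by 3.23-fold in cluster 0 (2.35 to 4.36), 2.11-fold in cluster 2 (1.39 to 3.13), 4.37-fold in cluster 3 (2.63 to 7.03) and 7.93-fold in cluster 5 (4.67 to 14.2). Pik3ap1 was higher by 1.55-fold, 1.62-fold, 3.23-fold and 3.18-fold in the same order. The within-cluster ratios of both genes were below their library ratios. Pik3r1 did not follow that order, since its ratios of 1.76, 1.62 and 1.68 in clusters 0, 2 and 3 were above its library ratio of 1.35, and that of cluster 5 was 1.04. Pik3cd ratios were 1.38, 1.41, 1.54 and 1.04 in clusters 0, 2, 3 and 5. Correspondingly, cKO IL-33 lay below WT IL-33 for Pik3r1 in clusters 0, 2 and 3, although the library ratio was 1.02. The ratios there were 0.736 (0.649 to 0.838), 0.842 (0.741 to 0.960) and 0.753 (0.619 to 0.924), and that of cluster 5 was 1.20 (0.953 to 1.51). For Inpp5d the ratios of WT IL-33 to WT vehicle were 0.828 (0.724 to 0.943), 1.04 (0.912 to 1.18), 0.753 (0.609 to 0.921) and 0.507 (0.397 to 0.641) in clusters 0, 2, 3 and 5. For Akt1 they were 0.844 and 0.866 in clusters 0 and 2, with intervals that include 1, and 0.492 and 0.587 in clusters 3 and 5. Pik3cg ratios in clusters 2 and 3 were 1.08 (0.875 to 1.32) and 1.06 (0.782 to 1.40), so there its higher level in WT IL-33 was not detectable. In clusters 0 and 5 they were 1.34 (1.10 to 1.63) and 1.44 (1.09 to 1.90).

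**Figure D4:**
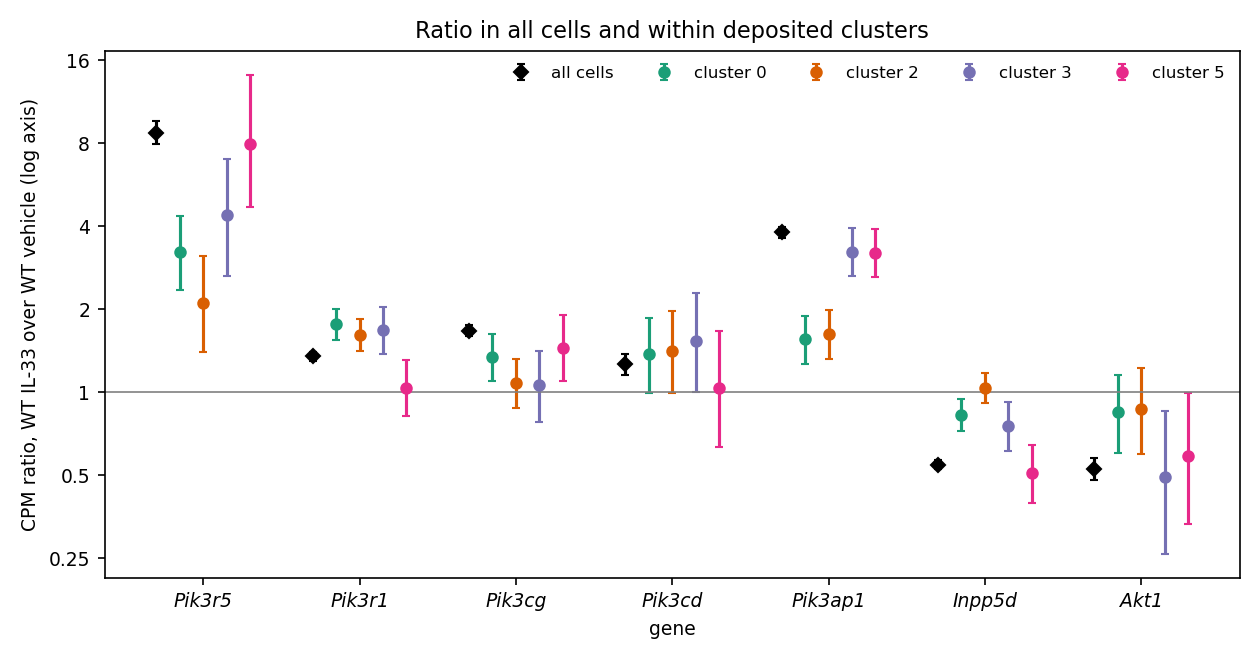
Ratio of CPM in WT IL-33 to CPM in WT vehicle on a log axis, for all cells and within each deposited cluster where both libraries had 50 cells, with exact 95% intervals. All Pik3r5 and Pik3ap1 points are above 1, and the Inpp5d points run from 0.507 in cluster 5 to 1.04 in cluster 2.

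The sex calls allowed a comparison inside 1 library. In WT IL-33, 1107 cells were called female, of which 802 had no UMI of a Y-linked gene. The others held such UMIs and were left out, while 2645 of 2648 female-called cKO IL-33 cells had none. How far the calls in WT IL-33 err was not tested, and the values below rest on them. These 802 cells and the 1095 cells called male came from the same library, though 74.2% of the former and 85.5% of the latter were in cluster 1. Inpp5d was higher in the female cells, at 332 against 235 CPM, a ratio of 1.41 (1.30 to 1.53), and so was Pik3r1, at 446 against 351 CPM, a ratio of 1.27 (1.19 to 1.36). Pik3r5 was at 222 CPM in female and 251 CPM in male cells, a ratio of 0.884 (0.809 to 0.965), and Pik3ap1 had a ratio of 0.929 (0.877 to 0.984). Pik3cg, Pik3cd and Akt1 had intervals that include equal levels. Comparing male WT IL-33 with male WT vehicle cells gave log2 ratios of 3.11 for Pik3r5, -1.23 for Inpp5d (-0.87 over all cells) and 0.24 for Pik3r1 (0.43 over all cells). The number of animals of each sex is not given, and the part of sex and of individual animals in these values was not tested.

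Around the 7 genes, 7 lists of other pathway genes were described in the same way. In WT IL-33 against WT vehicle, 79 of the 87 list genes were measured, of which 11 were at least 1.5-fold higher and 20 at least 1.5-fold lower, with a median log2 ratio of -0.26 beside 0.05 for all genes. Over all measured genes the shares were 23.2% higher and 20.0% lower, and counts of single lists in this comparison are to be read beside them. In cKO IL-33 against WT IL-33, 25 of 79 were higher (21.4% of all measured genes) and 11 lower (19.2%), with a median of 0.25 beside 0.004. In cKO IL-33 against WT vehicle, 3 of 77 were higher (Pik3ip1, Phlpp2 and Irs2), beside 2.35% of all measured genes, and 0 lower, beside 1.55%. The list of FoxO target genes, which FoxO factors drive when Akt is inactive, had the lowest median of the lists in WT IL-33 against vehicle. There 6 of its 10 genes were lower and 2 higher, with a median log2 ratio of -1.23.

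The other PI3K subunits, apart from Pik3r6, were lower or near equal in WT IL-33 against vehicle, with 1 higher, 2 lower and 5 between among 8 measured. Pik3ip1, which encodes a membrane inhibitor of PI3K, was at 12.04 CPM in the vehicle library (220 UMIs), 4.70 CPM in WT IL-33 (57 UMIs) and 41.2 CPM in cKO IL-33 (720 UMIs). In cKO IL-33 its level was 3.42 times that with vehicle (2.94 to 4.00), where the largest ratio among the 7 genes was the 1.37 of Pik3r1. These libraries also differ in sex call, and within WT IL-33 the female-called cells without Y-linked UMIs had 3.59 times the Pik3ip1 level of the male-called cells (1.56 to 9.24, from 24 and 8 UMIs). The part of sex in the difference between the libraries was not tested. Pik3r2, the regulatory subunit closely related to that of Pik3r1, was 1.83-fold lower in WT IL-33 than in vehicle, and Pik3ca, the ubiquitous alpha catalytic subunit, was 1.42-fold lower. Pik3c2g was not analysed here.

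Among 12 other phosphatases 2 were higher and 2 lower in WT IL-33 against vehicle, which is near the shares over all genes. Mtmr14 and Synj1, phosphatases that act on other phosphoinositides, were 3.09-fold and 1.84-fold higher in WT IL-33. Inpp5k, which can dephosphorylate PIP3, and Phlpp1, a phosphatase of Akt itself, were 2.13-fold and 2.21-fold lower.

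Below PIP3, the Akt, mTOR and effector list had 2 genes higher, 3 lower and 13 between. Eif4ebp1, a translation repressor that mTOR inactivates, was 3.75-fold higher and Rps6kb1, the ribosomal S6 kinase, 1.70-fold higher, while the transcription factors Foxo3 and Foxo1 were 1.99-fold and 1.69-fold lower. Among 12 PIP3-binding effectors, Vav1 and Prex1, exchange factors for Rac GTPases, were 2.45-fold and 1.59-fold higher, and the adaptors Plekha2 and Dapp1 were 2.02-fold and 1.95-fold lower. Of the adaptor list, Fyb, better known as an adaptor of integrin signalling, was 5.57-fold higher, and Blnk, the B cell linker, was 1.98-fold higher. Gab1 and Irs2, adaptors of growth factor and insulin receptors, were 3.36-fold and 2.37-fold lower. None of the 8 measured G protein subunits upstream of PI3K gamma was 1.5-fold higher, and 2 were lower, Gng2 by 1.999-fold and Gng10 by 1.96-fold.

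Of the FoxO targets, S1pr1, a receptor for sphingosine phosphate, was at 3.13 CPM in WT IL-33 (38 UMIs) and 36.5 CPM in WT vehicle, 11.7-fold lower (8.4 to 16.6). Klf2, a transcription factor, was 4.74-fold lower and Il7r, a cytokine receptor, 4.21-fold lower. Bcl6, a transcriptional repressor, was 1 of the 2 genes that went against the list by 1.5-fold or more, at 9.04-fold higher (7.22 to 11.4). Between the mice given IL-33, 8 of the 10 were higher (21.4% of all measured genes) and 2 lower (19.2%) in the library labelled cKO IL-33. Il7r was 6.14-fold higher there and Bcl6 5.41-fold lower.

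**Figure D5:**
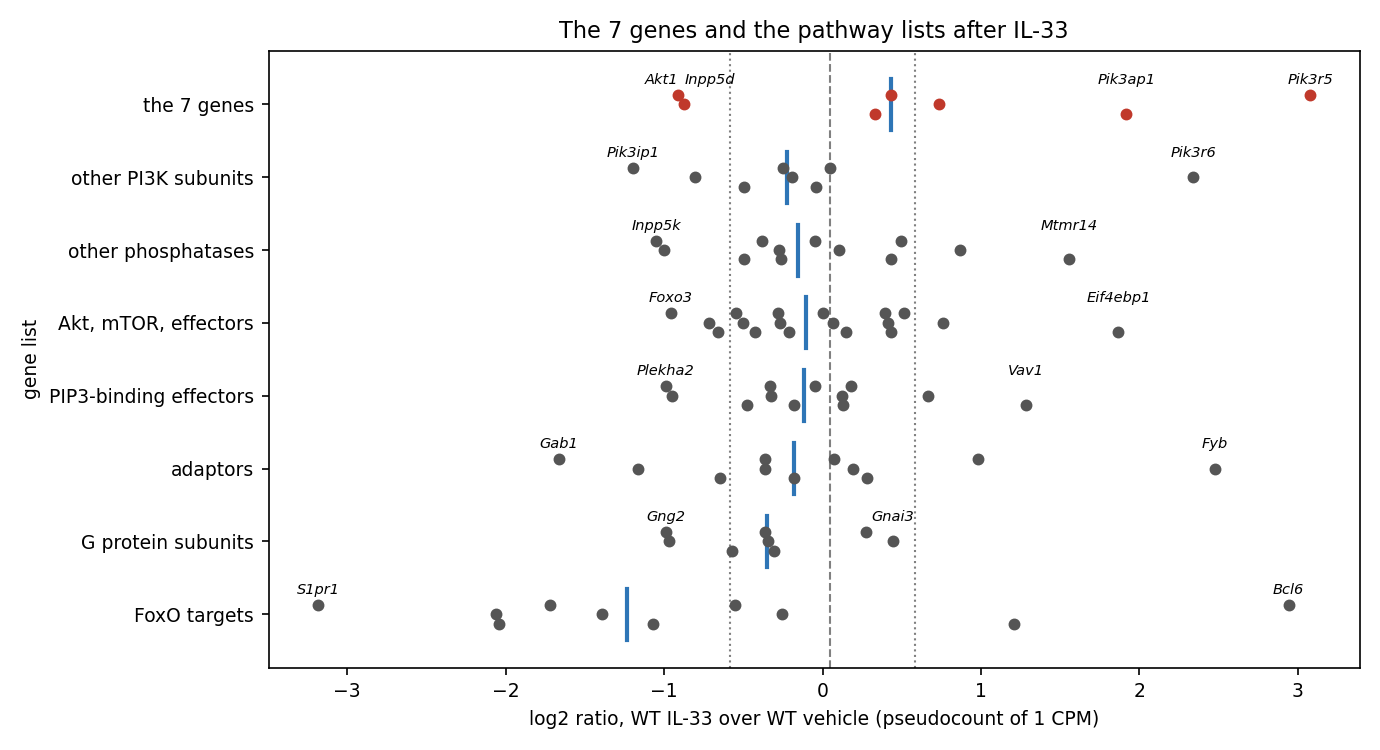
log2 ratio of WT IL-33 to WT vehicle for the 7 genes (red) and each measured gene of the 7 pathway lists (grey), with a pseudocount of 1 CPM, the list medians as blue bars, the median of all genes dashed and 1.5-fold dotted. Pik3r6 (5.21-fold higher) stands apart in its list, and the FoxO targets have the lowest list median (-1.23).

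For each gene, the 5 genes with the most similar pattern were taken by Pearson's r of log2(CPM + 1) over 15 sums, each the cells of 1 library in 1 cluster, among 5328 genes. The sums share 3 libraries and the clusters were made from these genes, so r is a description. Pik3r5 was most like Rtn1 (r = 0.984), a reticulon of the endoplasmic reticulum, followed by Copb1, Pou2f2, Herpud1 and Hivep3. Rtn1 itself was at 65.8 CPM with vehicle, 338 CPM in WT IL-33 and 74.1 CPM in cKO IL-33. Pik3ap1 was most like Map3k8 (r = 0.973), a kinase of inflammatory signalling (21.8, 138 and 22.3 CPM in the same order), followed by Sppl2a, Lacc1, Slc15a3 and Larp1. Inpp5d was most like Dock4 (r = 0.982), at 329, 185 and 437 CPM, followed by Itga6, Slco2b1, Tm6sf1 and Pdk1. Akt1 was most like Cbfa2t3 (r = 0.968), at 78.5, 6.27 and 51.5 CPM, followed by Commd8, Setd3, Camk2n1 and Smarca2. The genes that differed least had looser matches: Klf3 for Pik3cg (r = 0.916), Lpar6 for Pik3r1 (r = 0.910) and Trpm2 for Pik3cd (r = 0.896). Among the 7 themselves, Pik3r5 and Pik3ap1 had r = 0.885, Inpp5d and Akt1 0.814, and Pik3r1 and Pik3cd 0.832, while Pik3ap1 and Akt1 had -0.905. The catalytic subunit Pik3cg followed its regulatory partner Pik3r5 less closely, with r = 0.765.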

How the data were processed

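CD45+ thalamus cells of 3 libraries, 1 per group, were counted. The authors deposited UMI counts per gene and cell (20586 genes, 7598 cells). Per the file headers, a second deposited table gives the mitochondrial and ribosomal percent, a sex call, a phase and a cluster per cell. Cell Ranger 5.0, Seurat 4.0.1 and GRCm38 are named in the submitters' processing notes. No source used here states the filter on cells or any doublet removal, and no doublet caller was run. The UMI sum equalled the deposited count in 100% of cells.

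UMIs were summed per library, or per library and cluster of at least 50 cells, and divided by the total to give CPM. With 1 library per group no test was run. log2 ratios had 1 CPM added. Scaling factors came from edgeR 4.0.16 (TMM) and DESeq2 1.42.0 as alternatives only, with R 4.3.3, Python 3.11.15, numpy 2.4.6, scipy 1.17.1 and pandas 2.3.3. Ratios and intervals were tested on simulated counts. Named are the 7 genes, in each comparison up to 4 genes per list with the largest absolute log2 ratio at 10 CPM or more, and the 5 genes most like each of the 7. Akt2 and Il1rl1 are named for their function. The genes and lists were chosen with earlier results of these data known. Positions are from GENCODE M21 (GRCm38). No overlapping gene of the annotation was in the table.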

Additional observations from a re-analysis of the deposited data

How the results depend on the processing

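With 1 library per group, the depth sets counting error only. No paired analysis was possible because each group has 1 library, and for the same reason no library could be left out. At 2-fold in place of 1.5-fold, 0 of the 7 genes were lower in WT IL-33 against WT vehicle (from 2; 10.4% of all measured genes were) and 1 was higher in cKO IL-33 against WT IL-33 (from 2; 10.9% of all were). The other 68 of 70 counts of the 7 genes under the alternatives (TMM and DESeq2 scaling, totals without mitochondrial and ribosomal genes, thinned, G1 and sex-matched cells, cells low in other markers, and other pseudocounts and minimums) were within 1.5 times the first value. The pseudocount does not enter these counts, and every gene counted was above 50 CPM in a library of its comparison. The pseudocount and minimum settings therefore could not change the counts and say nothing about their stability. DESeq2 size factors added Pik3cg to the genes lower in cKO IL-33 against WT IL-33, making 3. The median log2 ratio of the pathway lists together ran from -0.36 to -0.20 in WT IL-33 against WT vehicle, from 0.18 to 0.30 in cKO IL-33 against WT IL-33, and from 0.04 to 0.11 in cKO IL-33 against WT vehicle. The median of the adaptor list in WT IL-33 against WT vehicle turned from -0.18 to 0.28 at a minimum of 50 CPM, where fewer genes are measured. That of the other PI3K subunits, -0.22 at first, ran from -0.32 to 0.92 in the same comparison. The 0.92 also came at the minimum of 50 CPM, where only Pik3r6 and Pik3ca of that list were measured. Of 224 medians of single lists under the alternatives, 207 stayed within the counting interval of the genes at the median. Of 182 log2 ratios of the 7 genes, 155 stayed within their counting intervals. Every thinned share was below its unthinned value. Thinning gave, for WT IL-33, for cKO IL-33 and for vehicle, 49.4%, 8.61% and 8.62% for Pik3r5, 64.3%, 66.6% and 56.9% for Pik3r1, 56.7%, 44.6% and 38.9% for Pik3cg, and 21.1%, 21.5% and 17.3% for Pik3cd. It gave 79.0%, 31.4% and 34.5% for Pik3ap1, 52.8%, 83.4% and 79.6% for Inpp5d, and 14.0%, 22.0% and 24.6% for Akt1. The log2 ratio of cKO IL-33 to WT IL-33 for Pik3r1 ran from -0.14 in sex-matched cells to 0.07, and that for Pik3cd from -0.10 to 0.04. Neither kept 1 sign across the settings. In the sex-matched cells Pik3r1 was lower in cKO IL-33, at 406 CPM (397 to 416) against 446 CPM (426 to 468) in WT IL-33. It was also lower there within clusters 0, 2 and 3, as given above. Sex-matched cells were too few to compare cKO IL-33 with WT vehicle.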

Other observations

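The chromosome 11 neighbourhood of Pik3r5 and Pik3r6 was counted within 200000 bases to either side, chosen after values were seen. Ntn1, which ends before Pik3r5 on the minus strand (68209364 to 68400823), had 3 UMIs with vehicle, 58 in WT IL-33 and 4 in cKO IL-33. Mfsd6l, the next gene after Pik3r6 on the plus strand (68556186 to 68558245), had 6, 22 and 3 UMIs in that order. Myh10, further along the plus strand, had 155, 75 and 94 UMIs. All 3 genes were below 10 CPM in every library, far under Pik3r5 and Pik3r6.

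Within the WT IL-33 library, Pik3r6 had a ratio of female-called cells without Y-linked UMIs to male-called cells of 0.856 (0.760 to 0.964), in the same direction as that of Pik3r5 in the report.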
